A study of Mus musculus with 8 samples.

Results

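The genes examined here are 10 markers of liver sinusoidal endothelial cells, Stab1, Stab2, Lyve1, Clec4g, Fcgr2b, Kdr, Pecam1, Oit3, Gpr182 and Bmp2, out of 46078 genes in the count table. They were chosen by name, as genes known to mark this cell type, and each matched a gene identifier in the table. Poly(A) RNA of whole livers was sequenced in 5 WT and 3 Rbfox2 KO mice. All 8 mice drank water with 30% (w/v) fructose for 22 weeks, begun in young adult mice, and were fasted before the liver was taken. The study's methods describe males unless stated otherwise, and the labels give no sex. By the same methods both groups carry LoxP sites on both Rbfox2 alleles, and the KO mice also carry a Cre recombinase driven by the albumin promoter. That promoter is active in hepatocytes, so the design removes Rbfox2, a regulator of alternative splicing, from hepatocytes and leaves it intact in the endothelium of both groups. The comparison asks whether the transcripts of a neighbouring cell type differ between livers with and without hepatocyte Rbfox2. Nothing in the labels ties the samples of a group to separate cages or litters, so p-values measure only the spread between these samples.

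Sinusoidal endothelial cells line the capillaries of the liver and lie against the hepatocytes across the space of Disse. They are perforated by fenestrae, lack a continuous basement membrane, and remove macromolecules and immune complexes from blood through scavenger and lectin receptors. They also send signals to hepatocytes. BMP2 and BMP6 from these cells drive hepatocyte expression of hepcidin, the regulator of iron uptake, and WNT ligands from the endothelium around the central vein set the pericentral gene programme. VEGF made by hepatocytes acts in return on the receptor encoded by Kdr and helps to keep the sinusoidal state. Sinusoidal cells that lose this state, in a process called capillarization, take on genes of continuous vessels such as Cd34.

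No difference between WT and Rbfox2 KO livers was detected for any of the 10 markers, with intervals that were narrow for some genes, such as Stab1 and Clec4g, and wide for Lyve1. None passed the edgeR quasi-likelihood test at a Benjamini-Hochberg adjusted p of 0.05 (lowest adjusted p among the members 0.9999), and 0 of the 10 had an unadjusted p under 0.05 in edgeR, DESeq2 or limma-voom, 0 higher and 0 lower. The mean log2 fold change was above 0 for 5 members and below 0 for 5, with a median of -0.01 beside 0.00 over all 14654 genes tested. The WT and Rbfox2 KO ranges overlapped for all 10. The same edgeR test called 0% of all tested genes after adjustment, 4.74% had an unadjusted p under 0.05 (2.41% higher and 2.33% lower in KO), and 3.71% had ranges that did not overlap, so the absence of calls among the markers is not particular to them. These are values per whole liver, in which fewer cells of a type and less RNA per cell cannot be told apart.

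All 10 markers were well above the detection floor. Their raw counts lay between 155 for Lyve1 in Rbfox2 KO 2 and 2082 for Fcgr2b in WT 1, where 3 counts correspond to 0.0838 to 0.118 CPM (counts scaled to library size) across the libraries. Library totals ran from 24829693 to 37823155. The values below are CPM after trimmed mean of M-values (TMM) scaling, whose factors ran from 0.821 in WT 3 to 1.28 in Rbfox2 KO 1. Rbfox2 itself was at 13.9, 20.5, 19.0, 17.9 and 23.1 CPM in WT 1 to 5 and at 6.83, 8.61 and 12.4 CPM in Rbfox2 KO 1 to 3. Every KO liver was below every WT liver, and the mean in KO was 49.0% of that in WT. On the log2 scale Rbfox2 was -1.03 ± 0.21 (SE) in KO relative to WT, at an adjusted p of 0.328 in edgeR. Rbfox2 KO 1 stood apart from the other livers in pancreatic exocrine transcripts. Its 12 pancreatic exocrine genes summed to 452 CPM. The sum was 4.88 to 17.3 CPM among WT livers, 6.09 CPM in Rbfox2 KO 2 and 5.14 CPM in Rbfox2 KO 3. Other livers stood out for other lists. Skeletal muscle genes summed to 325 CPM in WT 4, 415 CPM in WT 5 and 268 CPM in Rbfox2 KO 1, and to 0.943 to 56.9 CPM elsewhere. Genes of T, B and NK cells summed to 128 CPM in WT 2 and 133 CPM in WT 5, and to 8.72 to 25.6 CPM elsewhere. Lyve1 and the correlations among markers are given below with and without Rbfox2 KO 1. For the other markers, fold changes from a fit lacking this liver are listed with the alternative runs.

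Promoter sequence is shown for 3 members to place their transcription start. RefSeq promoter windows were available for 5 of the 10 genes (Stab1, Stab2, Clec4g, Fcgr2b and Kdr), and those of Stab1, Clec4g and Kdr end within 3 bases of the start of the GENCODE gene. Each line gives the 250 bases before the RefSeq start, 5′ to 3′ on the strand of the gene, in build GRCm38.p6, and capitals would mark a match to the GATA motif AGATAA or the ETS motif CCGGAAG on either strand. The Stab1 window is chr14:31168642-31168891, the Clec4g window chr8:3720652-3720901 and the Kdr window chr5:75978456-75978705, all on the minus strand.
Stab1: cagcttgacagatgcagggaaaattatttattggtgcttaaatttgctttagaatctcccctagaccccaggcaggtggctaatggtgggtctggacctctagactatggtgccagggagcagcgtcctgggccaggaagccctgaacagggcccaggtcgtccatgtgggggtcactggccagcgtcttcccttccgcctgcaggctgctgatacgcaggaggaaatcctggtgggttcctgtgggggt
Clec4g: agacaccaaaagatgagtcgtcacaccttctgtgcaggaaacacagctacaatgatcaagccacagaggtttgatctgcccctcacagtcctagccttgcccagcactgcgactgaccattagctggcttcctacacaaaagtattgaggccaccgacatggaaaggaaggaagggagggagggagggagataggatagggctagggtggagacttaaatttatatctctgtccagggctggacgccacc
Kdr: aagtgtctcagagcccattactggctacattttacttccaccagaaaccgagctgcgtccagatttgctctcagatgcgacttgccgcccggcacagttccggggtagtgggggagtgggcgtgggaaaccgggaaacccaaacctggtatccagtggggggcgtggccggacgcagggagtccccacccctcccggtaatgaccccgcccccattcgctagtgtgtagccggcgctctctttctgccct
GATA and ETS factors are known regulators of endothelial genes. Neither string occurred in any of the 5 member windows, while AGATAA occurred in 9.99% and CCGGAAG in 6.91% of all 32851 windows of this length. The absence of these letters says nothing about binding of the factors outside or inside the window.

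The scavenger receptor genes did not pass the test. Stab1 and Stab2 encode stabilin-1 and stabilin-2, large receptors that clear hyaluronan, modified proteins and other ligands from blood. Stab1 (ENSMUSG00000042286, chromosome 14, 31139013 to 31168641, minus strand, GRCm38) was at 24.4, 26.9, 26.9, 29.2 and 30.6 CPM in WT 1 to 5 and at 26.5, 27.5 and 29.3 CPM in Rbfox2 KO 1 to 3. All 3 KO values lay inside the WT range. The means were 27.6 ± 2.38 CPM (SD, n = 5) and 27.7 ± 1.42 CPM (SD, n = 3), and the log2 fold change was 0.01 ± 0.10 (SE). Its 95% interval allowed a level in KO between 0.867 and 1.17 times that in WT.

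Stab2 (ENSMUSG00000035459, chromosome 10, 86841198 to 87008025, minus strand) was at 24.0, 24.3, 23.1, 23.3 and 30.7 CPM in WT and at 19.6, 24.6 and 28.1 CPM in KO. WT 5 stood above the other WT livers, which were nearly level, and Rbfox2 KO 1 was the lowest of the 8. Stab2 had a log2 fold change of -0.06 ± 0.14 (SE), with a 95% interval from -0.36 to 0.25.

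Clec4g and Fcgr2b were the most abundant of the markers. Clec4g encodes LSECtin, a C-type lectin that binds glycans, and Fcgr2b encodes the inhibitory receptor for IgG, through which sinusoidal cells take up small immune complexes. Clec4g (ENSMUSG00000074491, chromosome 8, 3707064 to 3720651, minus strand) was at 44.6, 42.8, 45.9, 43.5 and 40.8 CPM in WT and at 38.2, 46.7 and 43.8 CPM in KO. Rbfox2 KO 1 was the lowest liver and Rbfox2 KO 2 the highest, only 1.22 times above it, the smallest span of the 10 markers. The log2 fold change of Clec4g was -0.02 ± 0.09 (SE), with a 95% interval from -0.22 to 0.18.

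Fcgr2b (ENSMUSG00000026656, chromosome 1, 170958617 to 170976547, minus strand) was at 76.8, 59.8, 54.4, 57.9 and 55.9 CPM in WT and at 49.4, 61.2 and 50.7 CPM in KO. WT 1 was high and apart from the other WT livers, 2 of the 3 KO livers were below every WT liver, and the ranges overlapped. The log2 fold change of Fcgr2b was the most negative of the 10, -0.18 ± 0.13 (SE), with an unadjusted edgeR p of 0.200, and it was -0.09 without WT 1. B cells and macrophages also express this receptor. In WT 1, the liver with the highest Fcgr2b, the genes of T, B and NK cells summed to 11.1 CPM and those of Kupffer cells and macrophages to 445 CPM. The other WT livers had 8.85 to 133 CPM and 432 to 475 CPM for these lists. The part of these cell types in the Fcgr2b value of WT 1 was not tested, and the T, B and NK list mixes several of them. Of the bases of the longest Fcgr2b transcript, 17.8% lie in 50-base stretches that also occur in transcripts of other genes. The largest part is shared with the activating receptor gene Fcgr3 (8.83%). The share of reads this misplaces is unknown.

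Lyve1 was the most variable marker. It encodes a hyaluronan receptor of sinusoidal and lymphatic endothelium that some tissue macrophages also carry. Lyve1 (ENSMUSG00000030787, chromosome 7, 110850607 to 110863239, minus strand) was at 7.05, 7.75, 6.64, 9.39 and 10.1 CPM in WT and at 17.2, 6.09 and 8.64 CPM in KO. Rbfox2 KO 1 held the highest value, 2.17 times the mean of the other 7 livers, and Rbfox2 KO 2 the lowest. The means were 8.18 ± 1.49 CPM (SD, n = 5) and 10.7 ± 5.84 CPM (SD, n = 3), and the log2 fold change was 0.38 ± 0.30 (SE) with a 95% interval from -0.29 to 1.05 and an unadjusted edgeR p of 0.231. Without Rbfox2 KO 1 the log2 fold change of Lyve1 was -0.16. Without Rbfox2 KO 2 it was 0.66, with an unadjusted edgeR p of 0.0301 and an adjusted p of 0.679.

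In Rbfox2 KO 1, some genes listed for other cell types were high together with Lyve1, and others on the lymphatic and macrophage lists were low. This liver was the highest of the 8 for 2 of 6 tested genes on the lymphatic endothelial list, Lyve1 itself and Ccl21a. It was the lowest for 2, Prox1 and Flt4 (83.4% and 82.7% of the mean of the other 7 livers). Flt4 is also counted below among the further sinusoidal genes, and Prox1, at 45.2 CPM in this liver, was far more abundant than Ccl21a. Which cell types set the Prox1 and Flt4 values was not tested, so they do not show a split among lymphatic genes. Rbfox2 KO 1 was the highest for 5 of 13 genes of Kupffer cells and macrophages and the lowest for 2, Timd4 (66.8%) and Folr2 (80.6%). It was the highest for 7 of 13 stellate cell and fibroblast genes and the lowest for 0. Over all 14654 tested genes this liver was the highest for 17.7% and the lowest for 16.8%. Ccl21a, a chemokine gene of lymphatic endothelium with near-identical copies and therefore an uncertain count, was at 4.39 CPM there and at 0.83 to 2.03 CPM elsewhere. Cd34 was at 3.01 CPM, against 0.63 to 2.03 CPM in the other 7 livers. Cd68, a gene of phagocytes, was at 11.4 CPM, against 5.30 to 6.81 CPM. The fibrillar collagen gene Col3a1 was at 37.3 CPM, against 7.51 to 13.2 CPM. The part of lymphatic vessels, macrophages or other tissue in the Lyve1 value of this liver was not tested. The genes named here beside Lyve1 were chosen after their values were seen.

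Kdr and Gpr182, the receptors for signalling molecules, did not pass the test. Kdr encodes VEGF receptor 2, the main receptor through which VEGF-A acts on endothelium. Kdr (ENSMUSG00000062960, chromosome 5, 75932827 to 75978458, minus strand) was at 26.0, 26.7, 27.0, 26.8 and 28.5 CPM in WT, a coefficient of variation of 3.35%. In Rbfox2 KO 1 to 3 it was at 21.3, 29.2 and 31.1 CPM. All WT livers fell between the lowest KO liver and the other 2 KO livers. For Kdr the log2 fold change was 0.01 ± 0.12 (SE), with a 95% interval from -0.26 to 0.28.

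Gpr182 encodes an atypical receptor of endothelium that scavenges chemokines. Gpr182 (ENSMUSG00000058396, chromosome 10, 127747276 to 127751732, minus strand) was at 13.8, 12.6, 15.2, 16.9 and 16.9 CPM in WT and at 16.6, 14.8 and 13.2 CPM in KO. The 3 KO livers lay inside the WT range, and the log2 fold change was -0.02 ± 0.13 (SE). With Lyve1, it was 1 of 2 markers above their own mean in Rbfox2 KO 1.

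Pecam1 (ENSMUSG00000020717, chromosome 11, 106654217 to 106750628, minus strand) encodes CD31, the adhesion molecule of junctions between endothelial cells, and marks endothelium of every vessel. It was at 12.3, 14.8, 12.7, 14.3 and 17.7 CPM in WT and at 13.2, 10.4 and 14.9 CPM in KO. WT 5 was the highest liver and Rbfox2 KO 2 the lowest. Pecam1 differed by -0.16 ± 0.15 (SE) on the log2 scale, with a 95% interval from -0.50 to 0.17 and an unadjusted edgeR p of 0.303.

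The genes of secreted products, Bmp2 and Oit3, did not pass the test either. Bmp2 (ENSMUSG00000027358, chromosome 2, 133552159 to 133562885, plus strand) encodes the BMP ligand that acts with BMP6 on hepatocytes. It was at 15.8, 20.4, 19.2, 15.0 and 15.0 CPM in WT and at 13.5, 20.0 and 21.5 CPM in KO. The KO livers spanned more than the whole WT range, with Rbfox2 KO 1 lowest and Rbfox2 KO 3 highest. The log2 fold change of Bmp2 was 0.10 ± 0.17 (SE), with a 95% interval from -0.26 to 0.47.

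Oit3 (ENSMUSG00000009654, chromosome 10, 59422958 to 59441778, minus strand) encodes a secreted zona pellucida domain protein. It was at 11.8, 14.3, 14.0, 14.8 and 17.5 CPM in WT and at 12.3, 13.4 and 18.2 CPM in KO. The lowest liver was WT 1 and the highest Rbfox2 KO 3, and the log2 fold change was 0.02 ± 0.16 (SE).

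**Figure D1:**
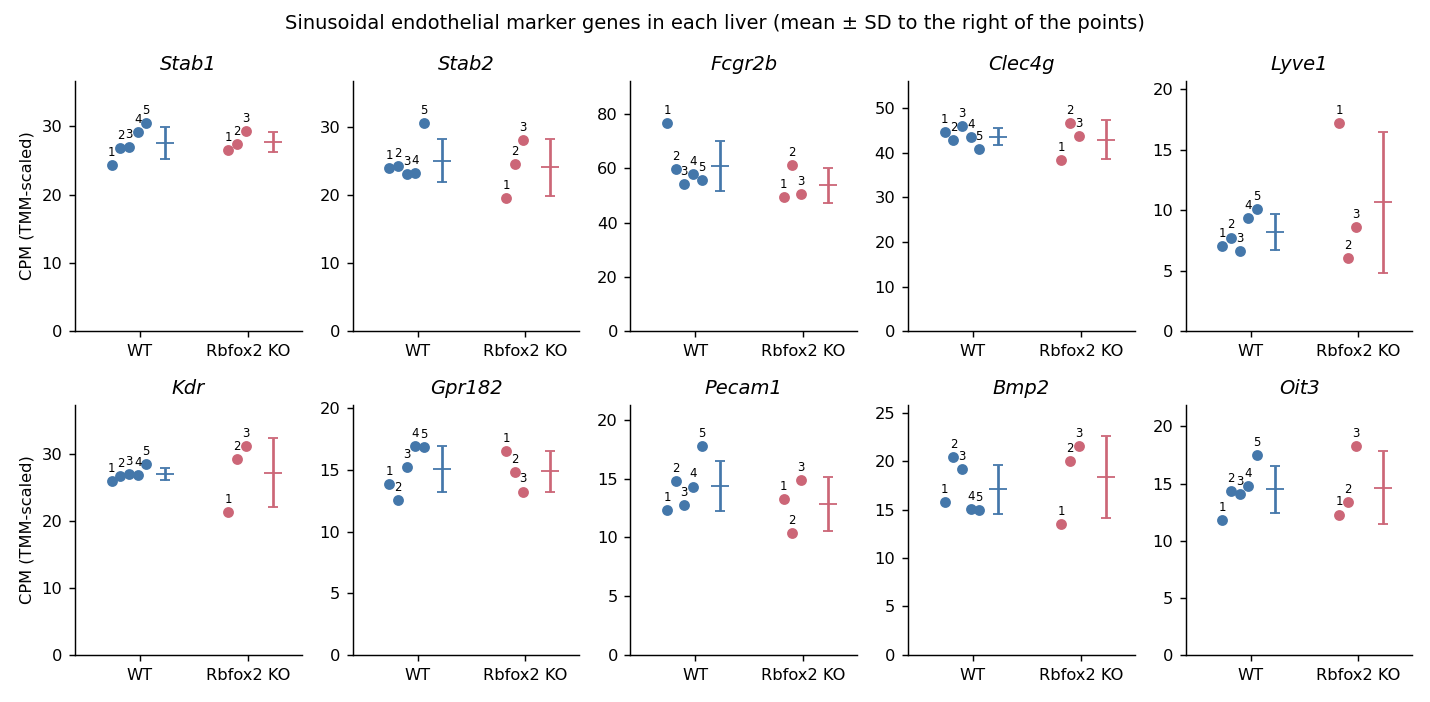
CPM (TMM-scaled, linear axis from 0) of the 10 sinusoidal endothelial marker genes in each of 5 WT and 3 Rbfox2 KO livers, numbered as in the labels, with the group mean and SD to the right of the points. WT and KO ranges overlap for all 10 genes, and the Lyve1 value of 17.2 CPM in Rbfox2 KO 1 lies above the rest.

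**Figure D2:**
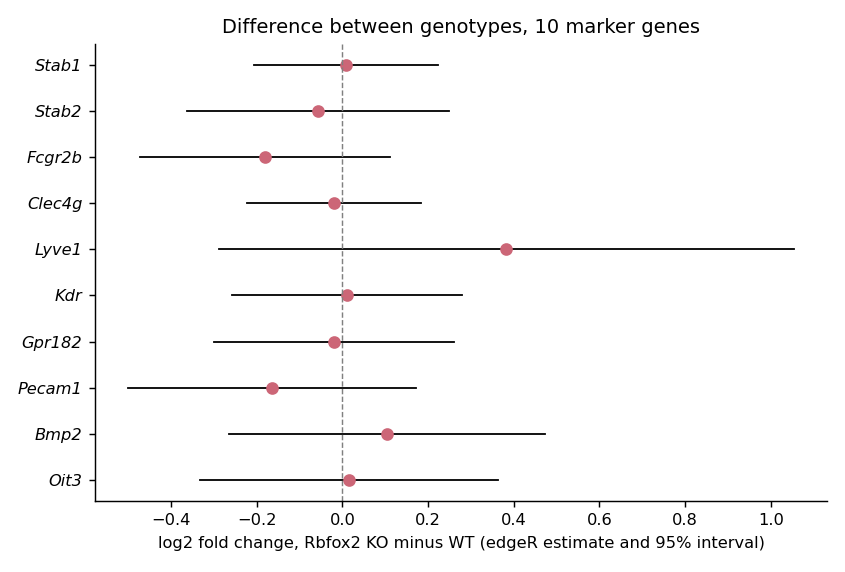
Log2 fold change of each marker, Rbfox2 KO minus WT, as the edgeR estimate with its 95% interval. All 10 intervals include 0; that of Lyve1 is the widest, from -0.29 to 1.05.

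How far the data could have shown a difference follows from the intervals. Stab1, Stab2, Clec4g and Kdr had 95% intervals between -0.36 and 0.28 on the log2 scale, while Lyve1 could have been anywhere from 0.818 to 2.08 times its WT level. The median SD of log2 CPM over the 5 WT livers was 0.192 for the 10 markers and 0.220 for all tested genes. The tested genes were not matched to the markers in level and include genes of lower counts.

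Per length of exon, the markers fell into a clear upper pair and a lower group with small steps. Clec4g was at 17.6 ± 1.11 CPM per kb (SD, n = 8) and Fcgr2b at 10.1 ± 1.48 CPM per kb. Clec4g exceeded Fcgr2b, and Fcgr2b exceeded the next gene, in all 8 livers. Oit3 (5.22 ± 0.823 CPM per kb), Bmp2 (4.94 ± 0.853) and Gpr182 (3.79 ± 0.427) followed. Oit3 was above Bmp2 in only 4 livers and Bmp2 above Gpr182 in 5, so these neighbours did not differ beyond their spread. Lyve1, Kdr, Stab2 and Stab1 had means from 3.12 down to 2.69 CPM per kb. Lyve1 was above Kdr in 3 of the 8 livers, Kdr above Stab2 in 7 and Stab2 above Stab1 in 6. Pecam1 was the lowest by this measure, at 2.22 ± 0.350 CPM per kb, below Stab1 in all 8 livers. The length used is the union of annotated exons, which exceeds the longest transcript for most of these genes. For Pecam1 it is 6228 bases against 3441 in the longest transcript, and for Stab1 10288 against 7999. The order within the lower group, with Pecam1 last, depends on this choice of length.

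**Figure D3:**
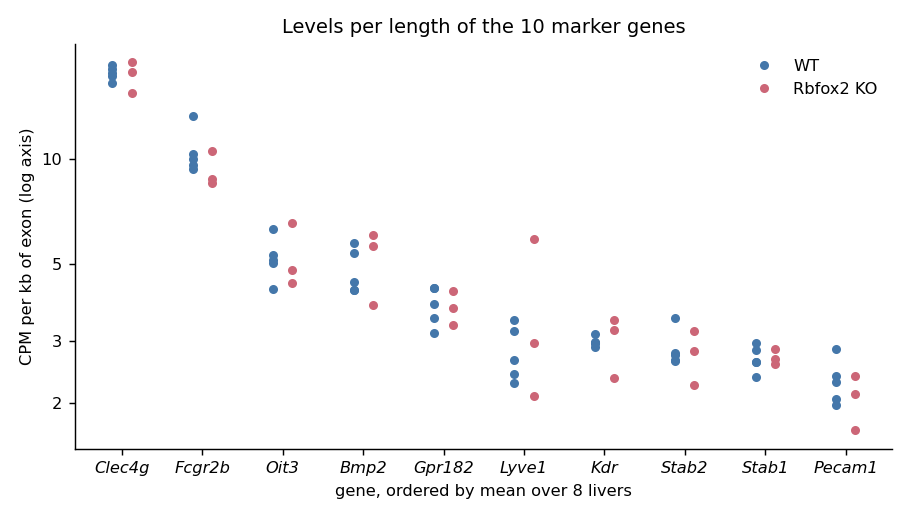
CPM per kb of exon (log axis) of the 10 markers, ordered by their mean over 8 livers, with WT and Rbfox2 KO livers side by side. Clec4g and Fcgr2b stand above the other 8 genes in every liver, and the ranges of the 2 genotypes overlap for all 10 genes, with some KO livers outside the WT range, as for Kdr and for Lyve1 in Rbfox2 KO 1.

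The markers did not rise and fall as a block across the 8 livers. Over the 45 pairs of markers the Pearson correlation of log2 CPM had a median of 0.10 and ran from -0.95 to 0.89, given as a description over 8 livers that share these libraries and their scaling. It was above 0.6 for 10 pairs and below -0.6 for 4, and without Rbfox2 KO 1 for 11 and 7 pairs. Each marker was also set against the mean of the other 9. Stab1, Stab2, Oit3, Pecam1 and Kdr correlated positively with that mean (0.86, 0.70, 0.91, 0.66 and 0.40), and they did so without Rbfox2 KO 1 as well (0.85, 0.79, 0.91, 0.69 and 0.50). These 5 did not all follow each other, since Kdr had 0.12 with Pecam1, and 0.10 without Rbfox2 KO 1. With Stab1 Kdr had 0.50, below its 0.70 with Bmp2. Without Rbfox2 KO 1 that order turned, at 0.60 with Stab1 and 0.50 with Bmp2. The correlation with the mean of the others was negative for Clec4g (-0.33), Fcgr2b (-0.59), Bmp2 (-0.25) and Gpr182 (-0.09). Without Rbfox2 KO 1 these values were -0.80, -0.77, -0.40 and 0.07. Lyve1 had -0.44 with all livers and 0.70 without Rbfox2 KO 1.

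By liver, WT 5 and Rbfox2 KO 3 each held the highest value of 3 markers. Rbfox2 KO 1 held the lowest value of 5 markers (Stab2, Clec4g, Fcgr2b, Kdr and Bmp2), while it was the lowest of the 8 livers for 16.8% of all tested genes. The other 2 KO livers did not share this, since Rbfox2 KO 2 was lowest for 2 markers and Rbfox2 KO 3 for 0. Bmp2, Kdr and Stab2 were at 74.7%, 76.4% and 77.2% of the mean of the other 7 livers in Rbfox2 KO 1. The summed CPM of the 10 markers was 228 in that liver, 254 and 259 in Rbfox2 KO 2 and 3, and 245 to 264 in WT. These places depend on the TMM scaling, in which Rbfox2 KO 1 had the largest factor, 1.28. By library totals alone it was not the lowest for any of the 5 markers, nor for their sum. Fcgr2b, for example, had 1577 counts of 24829693 there and 1549 of 34680661 in WT 3. The places of this liver in the other lists are also on the TMM scale. The 5 non-member genes whose log2 CPM followed the mean of the markers most closely over the 8 livers were Card6, Zfp74, Ago2, Stim1 and Atp7b, with Pearson correlations from 0.99 to 0.97 among 14644 genes ranked. With so many genes and only 8 livers, values this high can arise from the ranking alone.

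**Figure D4:**
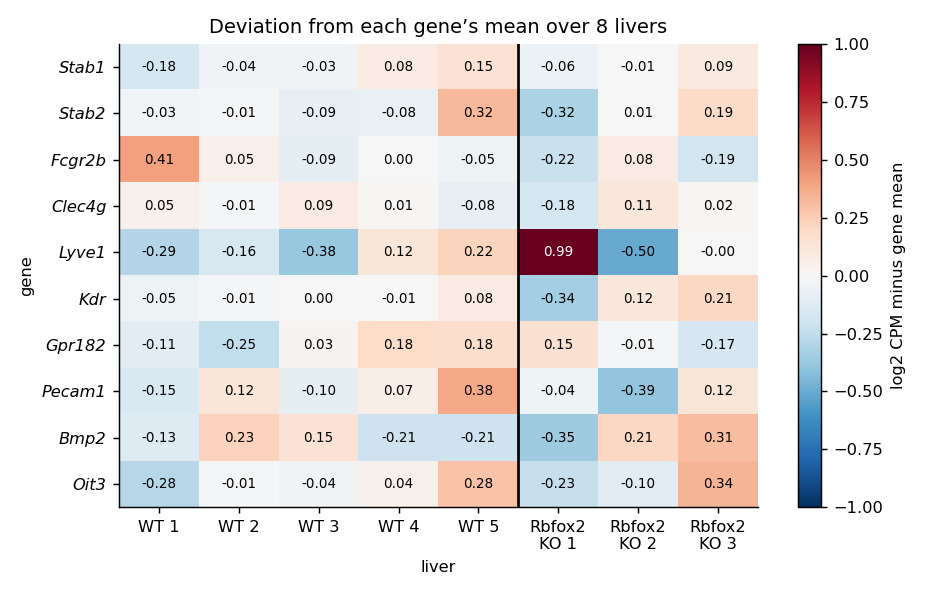
Deviation of log2 CPM of each marker from its own mean over 8 livers, by liver, WT left and Rbfox2 KO right of the line. Rbfox2 KO 1 is below the mean for most markers and 0.99 above it for Lyve1.

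Other genes of the sinusoidal endothelium were counted next. Of 20 further sinusoidal genes, 0 passed the threshold, 9 had a positive and 11 a negative log2 fold change, and the median was -0.01. Unadjusted p was under 0.05 for 1 of the 20, Aass, beside 4.74% of all genes. Aass encodes an enzyme of lysine degradation that hepatocytes also express. It was at 200, 199, 158, 188 and 193 CPM in WT and at 252, 217 and 249 CPM in KO. The KO livers were all above the WT livers, by 0.35 ± 0.11 (SE) on the log2 scale, at an adjusted p of 0.864 in edgeR. The next in order of p were Fcna, a ficolin gene, with -0.25 ± 0.11 (SE), and Wnt2, with -0.40 ± 0.20 (SE). Rbfox2 KO 1 was the lowest liver for 11 of these 20 genes, beside 16.8% of all tested genes.

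No difference was detected for genes shared by all endothelium. The 20 pan-endothelial genes included 0 past the threshold and 0 with an unadjusted edgeR p under 0.05, with 13 positive and 7 negative log2 fold changes and a median of 0.04. Their summed CPM was 173 to 189 in WT and 178 to 188 in KO, and Rbfox2 KO 1, at 181 CPM, was not low. The smallest p-values belonged to Robo4, a guidance receptor of endothelium (log2 fold change 0.26 ± 0.14), and to the transcription factor genes Fli1 (-0.37 ± 0.23) and Sox17 (0.33 ± 0.21). Scaling the libraries to these genes gave 0 calls among the 10 markers.

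Genes of continuous capillaries and large vessels, among them Cd34, named above for capillarization, had 0 of 13 tested members past the threshold. Unadjusted edgeR p was under 0.05 for 1 of the 13, beside 4.74% of all tested genes. This was the tetraspanin gene Cd9, at 0.36 ± 0.12 (SE) on the log2 scale and an adjusted p of 0.882 in edgeR. Edn1, the gene of the vasoconstrictor endothelin-1, followed with 0.65 ± 0.36 (SE), and Sox17 came after it. Rbfox2 KO 1 was the highest of the 8 livers for 9 of the 13, beside 17.7% of all tested genes. Its list sum was 87.7 CPM, above the WT livers (59.0 to 68.5 CPM), Rbfox2 KO 2 (63.9 CPM) and Rbfox2 KO 3 (60.2 CPM). Sele, the E-selectin gene, was at 0 in 4 livers and was not tested.

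In the VEGF pathway, 0 of 15 tested genes passed the threshold and 0 had an unadjusted edgeR p under 0.05. The ligand gene Vegfa had 60.9, 81.9, 77.7, 75.9 and 78.3 CPM in WT and 59.4, 77.5 and 91.1 CPM in KO, a log2 fold change of 0.02 ± 0.14 (SE). The lowest WT liver and the lowest KO liver were nearly equal. Flt1, the gene of the decoy receptor VEGF receptor 1, was at -0.03 ± 0.12 (SE), Flt4, that of VEGF receptor 3, at -0.20 ± 0.13, and the Notch ligand gene Dll4 at 0.22 ± 0.15, all as log2 fold changes. Esm1, a gene of endothelial tip cells, had the smallest p of the list. It was at 0.295, 0.355, 0.386, 0.664 and 0.473 CPM in WT and at 3.61, 0.432 and 0.224 CPM in KO, so its log2 fold change of 1.70 ± 0.76 (SE) rested on Rbfox2 KO 1.

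In the BMP pathway, 0 of 27 genes passed the threshold, with 20 positive and 7 negative log2 fold changes beside 49.8% negative among all tested genes. The ligand gene Bmp6 was at 3.14, 4.26, 3.23, 4.19 and 3.75 CPM in WT and at 4.33, 4.48 and 5.06 CPM in KO. All KO livers lay above the WT livers, the closest by a small margin, and Bmp6 differed by 0.31 ± 0.15 (SE) on the log2 scale at an unadjusted edgeR p of 0.0648. Hamp, the hepatocyte gene of hepcidin, was at 853, 722, 749, 596 and 362 CPM in WT and at 1107, 744 and 775 CPM in KO. Its groups overlapped and differed by 0.42 ± 0.25 (SE) on the log2 scale, at an unadjusted p of 0.128 in edgeR. Id3, a target of BMP signalling, was the 1 gene of the list with an unadjusted p under 0.05, at -0.36 ± 0.16 (SE), and WT 1 at 32.7 CPM lay with the KO livers (33.8, 31.6 and 43.3 CPM) rather than with the other WT livers. Bambi, the gene of a pseudoreceptor that dampens signalling, was at 0.35 ± 0.20 (SE).

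Among endothelial WNT ligands and pericentral targets, 0 of 16 genes passed the edgeR threshold. The list had 2 positive and 14 negative log2 fold changes, a median of -0.19 and 2 genes with an unadjusted p under 0.05. Of all tested genes, 49.8% were negative and 4.74% had an unadjusted edgeR p under 0.05. Slc1a2, the gene of a glutamate transporter of pericentral hepatocytes, was at 75.7, 87.8, 87.0, 86.1 and 110 CPM in WT and at 21.2, 47.4 and 56.9 CPM in KO. Every KO liver was below every WT liver, by -1.09 ± 0.28 (SE) on the log2 scale, at an adjusted p of 0.636 in edgeR. DESeq2 called it at an adjusted p under 0.05, as it did 0.409% of the genes to which it gave an adjusted p. Tbx3, a transcription factor gene, was at -0.47 ± 0.17 (SE), with 10.8 CPM in Rbfox2 KO 1 and 18.1 to 23.8 CPM elsewhere. The endothelial ligand gene Wnt2 was at 4.06, 3.13, 3.69, 3.04 and 3.72 CPM in WT and at 2.10, 3.58 and 2.38 CPM in KO. Rbfox2 KO 1 was the lowest liver for 11 of the 16 genes, beside 16.8% of all tested genes. Among the 11 was Cyp2e1, the gene of a pericentral cytochrome P450, at 2322 CPM against 5160 to 6226 CPM elsewhere. The list sum, of which Cyp2e1 made up most, was 3428 CPM in Rbfox2 KO 1. It was 8104 CPM in Rbfox2 KO 2, 7615 CPM in Rbfox2 KO 3 and 6782 to 7996 CPM in WT. The low sum was thus not shared by the other KO livers.

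**Figure D5:**
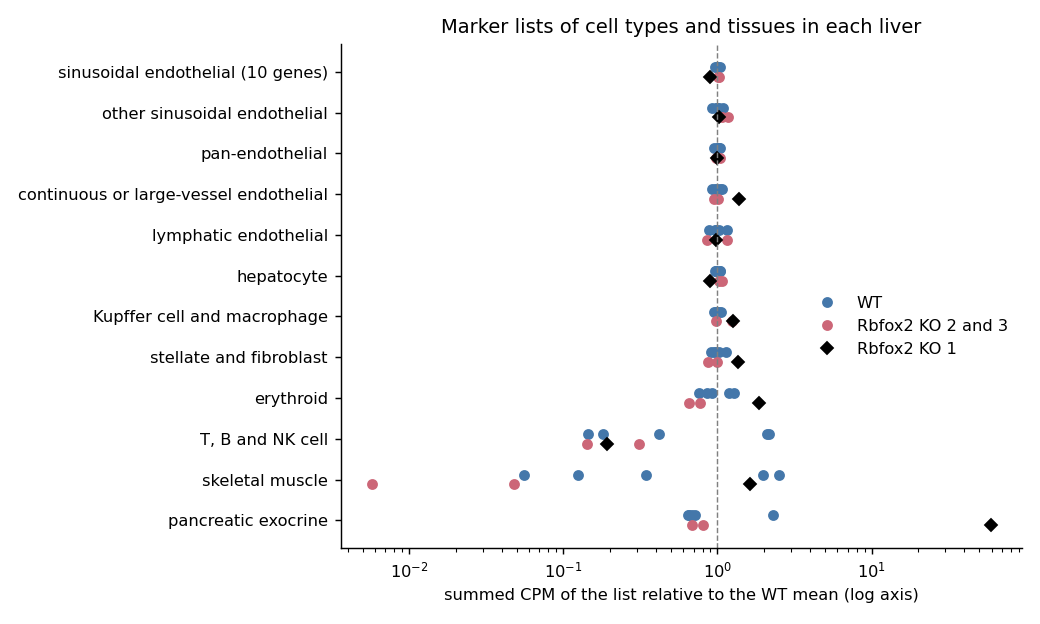
Summed CPM of marker gene lists in each liver, relative to the WT mean (log axis), for WT, Rbfox2 KO 2 and 3, and Rbfox2 KO 1 as a diamond. The sinusoidal and pan-endothelial lists stay close to the WT mean in all livers, while Rbfox2 KO 1 is high for pancreatic exocrine genes, at 452 CPM.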

How the data were processed

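The authors sequenced poly(A)-selected libraries as paired ends. They aligned the reads to GRCm38 (mm10) with TopHat2 2.0.11, named with CASAVA 1.8.4 in the submitters' processing notes, and counted reads per gene with featureCounts. The values they deposited are unnormalized read counts for each Ensembl gene. The use of strand and of reads with several alignments in counting was not given in the sources used here, so overlapping, antisense and near-identical genes are uncertain. Of the 10 markers, Stab1, Stab2, Clec4g, Fcgr2b and Gpr182 overlap an exon of an opposite-strand gene, by 74 to 155 bases. Of the table's 46078 genes, 45229 had a symbol in GENCODE M21, the same build, and 0 sample columns were left without a sample.

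Groups came from the labels. Genes were filtered with filterByExpr, libraries scaled by TMM, and genotype, the only term, tested with the robust quasi-likelihood test of edgeR 4.0.16 in R 4.3.3 over 14654 genes, with Benjamini-Hochberg adjustment at 0.05. The SE is that of the log2 fold change. CPM are TMM-scaled, log2 CPM used a prior count of 2, and floors of 3 counts cover counting error only. Alternatives were other scalings and filters, DESeq2 1.42.0, limma-voom (limma 3.58.1), a fit without robust dispersion, a replicate block, each sample left out, and, chosen after the data were seen, WT 1 and Rbfox2 KO 1 both left out. The procedure was tested on simulated data. By chi-square over genes, all pairs of samples in a group differed beyond sampling noise.

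The markers and gene lists were chosen with earlier results of these data known. Named genes were the 10 markers, Rbfox2, Bmp6, Hamp, Vegfa, Flt1, the 3 genes with the smallest edgeR p of each non-lymphatic endothelial, VEGF, BMP and WNT list, and the 5 genes closest to the markers' mean profile. Ccl21a, Cd34, Cd68, Col3a1, Prox1, Timd4, Folr2, Cyp2e1 and Sele were added after their values were seen.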

Additional observations from a re-analysis of the deposited data

Results flagged for a closer look

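Among the 5 WT livers, the gap of the highest or lowest value to its nearest neighbour was compared with the whole WT range, against the Dixon critical value of 0.71. The comparison covered 48 values, of which 6 exceeded it, where chance gives about 2.4. Among the markers, Stab2 in WT 5 (30.7 CPM) had a gap of 0.844 of the range, and Fcgr2b in WT 1 (76.8 CPM) had 0.758. The share was 0.732 for Aass, which was low in WT 3 at 158 CPM. WT 1 was set apart for Vegfa (0.716), where it was low at 60.9 CPM, and for Id3 (0.937), low at 32.7 CPM. The summed pancreatic exocrine genes were high in WT 1, at 17.3 CPM, with a share of 0.957.

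Pancreatic exocrine genes, which lie outside the endothelial comparison, summed to 452 CPM in Rbfox2 KO 1, above all WT livers.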

How the results depend on the processing

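None of the 10 markers passed the threshold under any alternative run, and the same held for the further sinusoidal, pan-endothelial, VEGF and BMP genes. Over all tested genes, edgeR called 0, or 1 when libraries were scaled to the pan-endothelial genes and 6 without a filter on low counts, and DESeq2 called 59. The members' median log2 fold change was 0.0919 with library totals in place of TMM, a scaling that put the median of all genes at 0.115, and -0.0672 to 0.0426 with a sample left out. Directions of log2 fold changes near 0 were not stable. With library totals Stab2 (0.0155), Clec4g (0.0821) and Gpr182 (0.106) turned positive. With scaling to pan-endothelial genes Stab1 (-0.0262), Kdr (-0.0246) and Oit3 (-0.0172) turned negative, as did Kdr in limma-voom (-0.00840). Leaving out each sample in turn gave -0.0385 to 0.0481 for Stab1, -0.182 to 0.0658 for Stab2, -0.155 to 0.658 for Lyve1, -0.0854 to 0.0503 for Clec4g, -0.0984 to 0.153 for Kdr, -0.111 to 0.0564 for Gpr182, -0.0284 to 0.277 for Bmp2 and -0.177 to 0.122 for Oit3. Fcgr2b and Pecam1 stayed negative. Lyve1 turned negative only without Rbfox2 KO 1 among these fits. In the fit lacking that liver, Kdr was at 0.153 ± 0.094 (SE), Bmp2 at 0.277 ± 0.144 and Oit3 at 0.122 ± 0.168. Stab2 was at 0.0658, Clec4g at 0.0503 and Stab1 at 0.0349. Negative values were -0.155 for Lyve1, -0.129 for Fcgr2b, -0.111 for Gpr182 and -0.192 for Pecam1. Without both WT 1 and Rbfox2 KO 1, chosen after the data were seen, Stab1 (-0.00734), Stab2 (0.0499), Lyve1 (-0.203) and Clec4g (0.0584) changed sign. The cause of these turns was not tested.

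Sample numbers 1 to 3 occur in both groups and belong to different mice. Deviations of same-numbered samples correlated at 0.163, 0.0484 and 0.170, so the numbers were not taken as pairs. A replicate block called 0 genes and 0 markers, and turned Stab2 (0.00468), Gpr182 (0.0984) and Bmp2 (-0.0261). With 3 KO livers, the Lyve1 interval leaves a doubling unresolved.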
